A study of Mus musculus with 2 samples.

Results

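Igf2bp1 was examined as a target of FAM120A by taking every deposited read cluster on the minus strand of chromosome 11 between mm9 positions 95818000 and 95868000, the window given for this gene. The window held 57 of the 11670 clusters enriched in the library of epitope-tagged FAM120A and 0 of the 1134 clusters enriched in the library of the untagged protein. The gene was chosen by a measured value, the number of clusters in its locus, which was the highest in the tagged list. For that reason the number, position and listed enrichment of its clusters are given as a description, with no test. The study used mouse embryonic stem cells of 2 lines, TT-FHFam120a, which carries a FLAG-HA-Fam120a gene, and TT-Fam120a, which carries the gene without the epitopes. Both transgenes were delivered with the pSLIK lentivirus and induced with doxycycline at 2.5 µg/mL, so the untagged line measured what FLAG and HA antibodies recovered from cells that made the protein without epitopes. RNA contacts were mapped by iCLIP, in which ultraviolet light links protein to RNA, the RNA is trimmed by RNase I, and the complex is purified before the RNA is reverse transcribed and sequenced. There was 1 library per line, so no difference between the libraries has a replicate check. The labels do not say whether either line is 1 clone.

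Igf2bp1 encodes an RNA-binding protein of the insulin-like growth factor 2 mRNA-binding family, which uses RRM and KH domains to bind messenger RNAs and to influence their stability, transport and translation. It is made in embryonic tissues and in many tumours and is scarce in most adult tissues. Its own mRNA has a long 3' untranslated region that carries target sites of the let-7 microRNA family, and cells can shorten this region by using upstream polyadenylation sites. FAM120A also binds RNA, and it is found together with Argonaute 2, which carries microRNAs to their targets, and the title of the study concerns its effect on microRNA-mediated repression. The gene lies on the minus strand, so its transcript runs from high to low coordinates, and its last exon with the 3' untranslated region is at the low-coordinate end.

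In RefSeq on assembly GRCm38.p6 the protein-coding neighbours of Igf2bp1 (gene ID 140486) are B4galnt2 beyond its 3' end and Gip beyond its 5' end. A microRNA gene, Mir3063, lies inside it on the same strand. Its 2 mature RNAs are shown because reads on this strand of the gene could include them, with bases 2 to 8, the seed, in capitals.
mmu-miR-3063-5p: uGGAGAUCagguuugcacacu
mmu-miR-3063-3p: uGAGGAAUccugaucucucgcc
Coordinates of that assembly differ from those of mm9, so the position of Mir3063 relative to the clusters was not determined. The exons, the stop codon and the polyadenylation sites of Igf2bp1 in mm9, and the sequence under each cluster, were not analysed here.

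Of the 57 clusters, 56 lay in a single run at the 3' end of the gene, from 95818562 to 95824773. The run is 6212 nt long, or 12.4% of the window. The other cluster lay near the 5' end of the window, at positions 95867102 to 95867127, and held 5 tagged reads against 0 untagged reads, the lowest count in the list. Between it and the run, 42328 nt of the gene held no listed cluster. No cluster in the window carried the name of a splice junction, and neither list had a cluster on the plus strand of the window (0 and 0).

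The clusters nearest to the gene on the same strand lay well outside the window. The first cluster of the run began 562 nt inside the low edge of the window, and the 5' cluster ended 873 nt inside the high edge. The nearest tagged-list cluster outside the low edge was 119035 nt away and had 74 tagged reads against 20 scaled untagged reads, a log2 ratio of 1.84. The nearest one outside the high edge was 42054 nt away and had 5 tagged reads against 0, and it was the first of a dense locus of 14 clusters, from 95910054 to 95911404, with up to 26 tagged reads. The nearest untagged-list clusters on this strand were 1468231 and 492205 nt from the window.

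Few untagged reads were found at any cluster of the gene, which the listing for enrichment over the untagged library favours. Where untagged reads are called scaled, they were multiplied by a factor of 1.501 recovered from the lists, read here as the relative depth of the libraries. Clusters of Igf2bp1 held a median of 13 tagged reads (95% interval of the median 11 to 16), from 5 to 266, and the median over all tagged-list clusters was 8 (8 to 9). Before scaling, the untagged library had 0 reads at 26 of the 57 clusters, 1 read at 22, 2 reads at 5, 3 reads at 3 and 5 reads at 1. No cluster of the gene had more than 5 unscaled untagged reads. The numbers of both libraries along the run are drawn in the plot of reads by position.

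**Figure D1:**
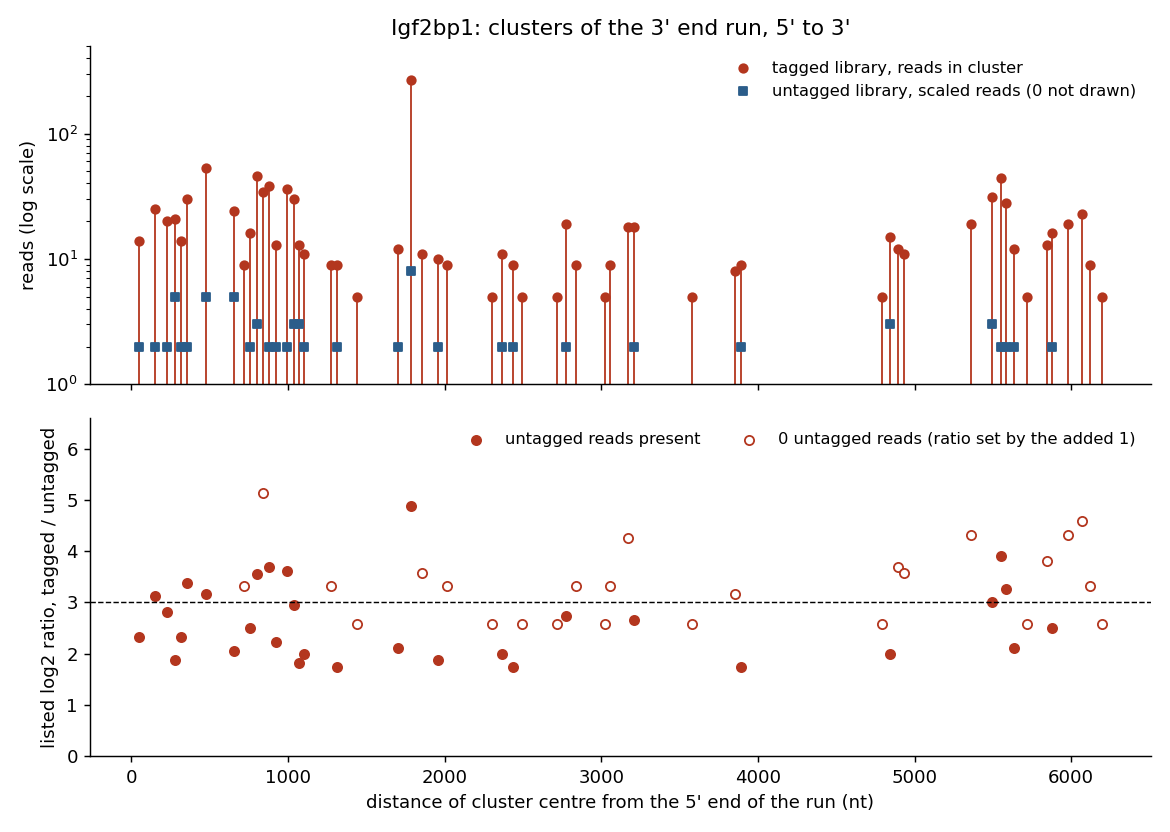
Upper panel: reads of each of the 56 clusters of the run in the tagged library (circles) and the scaled reads of the untagged library (squares, 0 not drawn), on a log axis, against distance in nt from the 5' end of the run. Lower panel: the listed log2 ratio of the same clusters, open where the untagged library had 0 reads, with a dashed line at 3; 1 cluster of 266 reads stands above the others, which held at most 53.

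The leading cluster of the gene, at positions 95822963 to 95823011, held 266 reads in the tagged library and 5 unscaled reads in the untagged one. The next cluster had 53 tagged reads, so the leading one held 5.02 times as many. After adjustment for depth, its ratio of tagged to untagged reads was 35.4 (exact 95% interval 15 to 110.1), and the p listed for it by the authors, read here as a one-sided exact binomial test, was 2.41e-68. This test and interval compare these 2 libraries and cover counting error only. Its 49 nt were made of 2 named pieces of class C2, and its highest position held 52 reads, or 19.5% of its reads. It stood between clusters of low counts: the cluster on its 5' side had 12 tagged reads and the one on its 3' side 11.

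Reads were unevenly distributed along the run, with higher median counts in its first 1000 nt and from 5000 to 6000 nt. The parts compared here differ in length. The 1000 nt at the 5' end of the run held 15 clusters with a median of 24 tagged reads (9 to 53), and 10 of the 15 held at least 20 reads. The next 1000 nt held 10 clusters with a median of 11 reads, of which 2 reached 20, the leading cluster among them. From 2000 to 5000 nt there were 19 clusters with a median of 9 reads and a maximum of 19, so none reached 20 (0 of 19). From 5000 nt to the 3' end there were 12 clusters with a median of 17.5 reads, and 4 of them held at least 20. Of these 12, the 9 from 5000 to 6000 nt had a median of 19 reads. The 3 beyond 6000 nt had a median of 9 (5 to 23), as low as the middle of the run. The untagged library had reads at 13 of the 15 clusters of the first part, 7 of 10 in the next, 6 of 19 in the middle and 5 of 12 at the 3' end. No cluster of 8 or fewer tagged reads with an untagged read is listed, which lowers these counts where tagged reads are few.

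The 5' part of the run was an almost continuous row of clusters. From 95823659 to 95824773, 18 clusters lay with gaps of at most 50 nt over 1115 nt. The longest cluster of the gene, 211 nt at positions 95824192 to 95824402, belonged to this row. It joined 11 named pieces and held 53 tagged reads. The untagged library had 3 unscaled reads there, which gives a ratio adjusted for depth of 11.8 (3.82 to 58.9). The cluster at 95823957 to 95823982 held 46 tagged reads against 2, a ratio of 15.3 (4.01 to 130.3). The one at 95823878 to 95823916 held 38 against 1, a ratio of 25.3 (4.28 to 1026), and the one at 95823762 to 95823800 held 36 against 1, a ratio of 24 (4.04 to 973). The upper bounds are wide because 1 or 2 untagged reads set them.

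A cluster of the same row held the highest listed log2 ratio of the gene. At positions 95823918 to 95823943 the tagged library had 34 reads, of which 73.5% lay at 1 position, and the untagged library had 0. The listed log2 ratio of 5.13 comes from 34 reads and the added 1 and is not a measured fold. With the untagged library set to the floor that a count of 0 allows, 3 unscaled reads, the ratio of the cluster was 7.55. Its exact interval began lower, at 5.81, so 7.55 is not a lower bound. The 2 clusters of this row with 3 unscaled untagged reads other than the longest one had lower ratios. They held 24 tagged reads at 95824077 to 95824165 and 21 at 95824485 to 95824510, with ratios of 5.33 (1.62 to 27.7) and 4.66 (1.39 to 24.4).

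At the 3' end of the run, the highest counts lay in a stretch of 4 clusters from 95819127 to 95819301. Its leading cluster, at 95819212 to 95819237, held 44 tagged reads against 1 unscaled untagged read, a ratio of 29.3 (4.99 to 1184), with 38.6% of its reads at the highest position. Its neighbours in the stretch held 12, 28 and 31 tagged reads, and the untagged library had 1 or 2 reads at each of the 4. The last stretch, 270 nt from 95818562 to 95818831, also held 4 clusters, with 5, 9, 23 and 19 tagged reads, and the untagged library had 0 reads at all 4. Its highest cluster, 23 reads at 95818694 to 95818719, had a ratio of 5.11 against the floor, while its exact interval began at 3.83. The cluster that ends the run held 5 reads against 0.

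Enrichment in the gene was read from the listed log2 ratio, which adds 1 to the reads of both libraries. Its median over the 57 clusters was 2.74 (2.58 to 3.27), and over all tagged-list clusters it was 2.81. Of the 57 clusters, 26 had a log2 ratio of 3 or more (45.6%, Wilson 95% interval 33.4 to 58.4), beside 38.7% of all tagged-list clusters. The share in the gene is near the share over the list, and its interval includes it. Among clusters of at least 20 reads, 12 of 16 in the gene reached this ratio (75%, 50.5 to 89.8), beside 46.3% of all such clusters, and the median ratios were 3.32 (3 to 3.7) and 2.87 (2.81 to 2.94). Among the 14 of these with 20 to 49 reads, 10 did (71.4%, 45.4 to 88.3), beside 48% in the list. At 50 or more reads the gene had 2 clusters, and the 571 of the list had a median log2 ratio of only 1.37. Below 20 reads the shares went the other way. Among clusters of 9 to 19 reads, 13 of 30 did (43.3%, 27.4 to 60.8), beside 51.3% in the list. Of those with 5 to 8 reads, 1 of 11 did (9.09%, 1.62 to 37.7), beside 27.9% in the list. Clusters of these read counts in other dense loci were not compared. The clusters of the gene are few, share a transcript and may share reads, so these shares are a description.

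The untagged library had 0 reads at 26 of 57 clusters (45.6%, 33.4 to 58.4), beside 69.9% of all tagged-list clusters. These 26 are not the same clusters as the 26 with a log2 ratio of at least 3, since a cluster of 5 reads against 0 is listed at 2.58. The share with 0 reads depends on how many reads a cluster had. Among clusters of 9 to 19 reads it was 13 of 30 in the gene (43.3%, 27.4 to 60.8), beside 51.3% in the list. Among those of 20 to 49 reads it was 2 of 14 (14.3%, 4.01 to 39.9), beside 21.8% in the list. Clusters of 8 or fewer reads made up 19.3% of those in the gene and 50.4% of the list, and all of them had 0 untagged reads, as the listing requires. Within matched read classes, then, the shares in the gene were near those in the list.

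Where the untagged library had reads, the ratio could be measured. At these 31 clusters the depth-adjusted ratio of tagged to untagged reads had a median of 9.99 (8 to 12), from 4.33 to 35.4. Over the 3517 such clusters of the whole list the median was 6.66. These medians were not matched for tagged reads, so nothing is read from their difference in the depth-adjusted ratio. The lower bound of the exact 95% interval of this ratio was above 1 for 42 of the 57 clusters (73.7%, 61 to 83.4), beside 46.2% of all tagged-list clusters. Both shares come from clusters listed because the same reads were already enriched in the tagged library, and clusters of 8 or fewer reads were fewer in the gene, so nothing is read from them. The other 15 clusters had intervals that reached down to 1 or lower, and all 10 clusters with 5 tagged reads against 0 were among them. The plot of ratio against reads sets the clusters of the gene among all others.

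**Figure D2:**
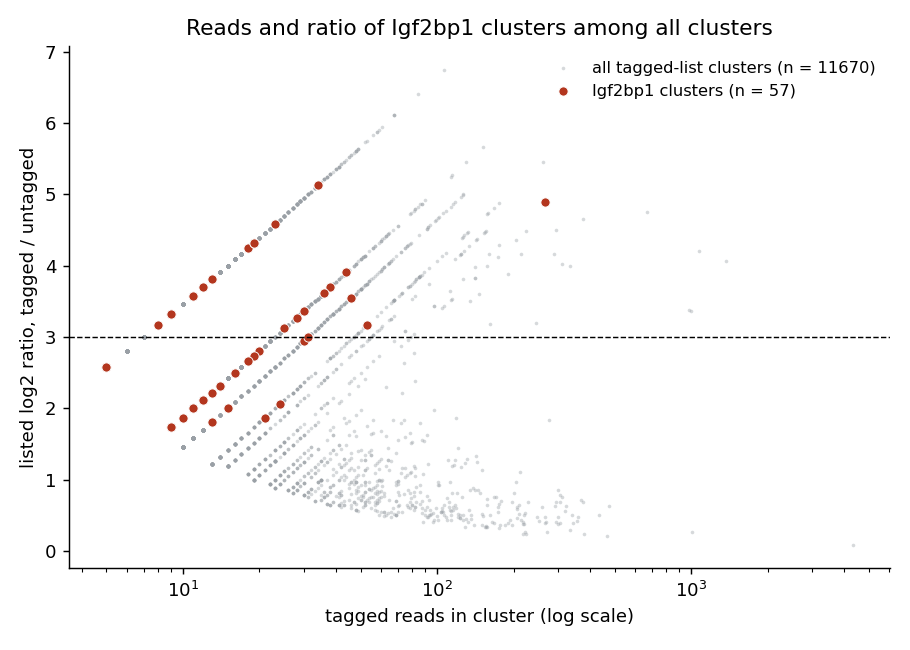
Listed log2 ratio of tagged to untagged reads against tagged reads per cluster (log axis) for all 11670 tagged-list clusters (grey) and the 57 of Igf2bp1 (red), with a dashed line at 3. The clusters of the gene lie between 1.74 and 5.13; points fall on lines because untagged reads are whole numbers, with 0 on the uppermost line.

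Clusters of the run lay close together. The median gap between neighbours was 22 nt (14 to 37), from 1 to 875 nt, and 39 of the 55 gaps were at most 50 nt. No 2 clusters overlapped. Together the clusters covered 2222 nt, or 35.8% of the run, and the run held 9.01 clusters per 1000 nt. Merging clusters with gaps of at most 50 nt left 17 stretches in the run, 4 of them single clusters, so the number of separate contacts is not settled by the number of clusters. Among neighbours that were both 26 nt long, the most frequent length in the list, the median distance from start to start was 43 nt (37 to 83), and 11 of these 19 pairs were 26 to 45 nt apart. Clusters of this length that do not overlap cannot start closer than 26 nt. The distance was not compared with that in the list, so no spacing of contacts is read from it.

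Gaps over 200 nt were few (6 of 55). None could lie in the row at the 5' end, which was defined by gaps of at most 50 nt. The widest, 875 nt from 95819992 to 95820866, separated the 16 clusters nearest the 3' end from the other 40. The next, 398 nt from 95819433 to 95819830, lay on the 3' side of it, and the others were 331, 247, 238 and 228 nt wide. A gap means only that no cluster passed the authors' limits there, which reach down to 5 reads.

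Reads of the stronger clusters were spread over several positions. Among the 16 clusters of at least 20 reads, the highest position held a median of 32.8% of the reads (17.4 to 38.6), from 10% to 73.5%, and over all 1995 such clusters of the list the median was 45.3%. At most 50% of the reads lay at the highest position in 13 of the 16 (81.2%, 57 to 93.4), beside 56.4% in the list. None of the 16 had over 75% of its reads there (0%, interval up to 19.4), beside 27.6% in the list. Loci of at least 10 clusters shared this spread: over the 175 of them with clusters of at least 20 reads, each summarised by its own median share at the highest position, the middle value was also 32.8% (quartiles 27.5 and 38.5). The 3 clusters above 50% all lay in the row at the 5' end and had 53, 36 and 34 reads. The reads counted for a cluster can include reads that start outside it, so this share can follow in part from how densely clusters lie, and that was not tested.

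**Figure D3:**
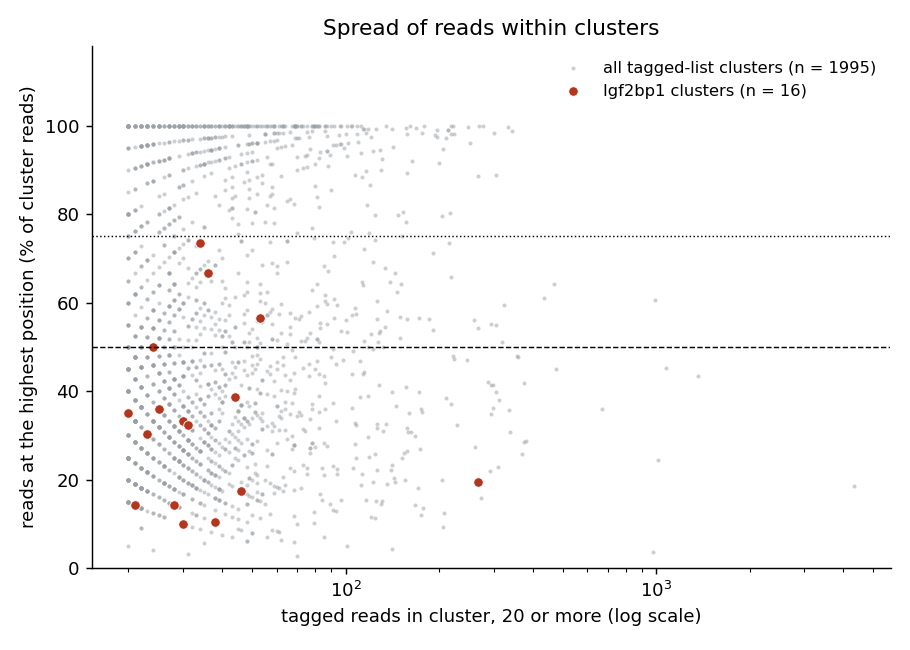
Percent of a cluster's reads at its highest position against its tagged reads (log axis) for clusters of at least 20 reads, in the whole tagged list (grey, 1995) and in Igf2bp1 (red, 16). Of the 16, 13 lie at or under the dashed line at 50% and none lies above the dotted line at 75%.

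Strong and weak clusters of the gene differed in their deposited names. The authors named 41 of the 57 clusters region C2, 11 region B, 4 by both and 1 region C1, and the letters are not explained in the sources used here. Region C2 alone made up 71.9% of clusters in the gene and 42% of the list, and region B 19.3% and 49.1%. Clusters named C2 held a median of 16 reads (13 to 21), up to 266, and those named B a median of 5 and at most 9. All 16 clusters of at least 20 reads carried C2 in their names. Elsewhere in the list, clusters of at least 20 reads named region B alone do occur. Reads were not compared by name over the list, so this difference in reads is not shown to be particular to the gene. Several pieces were joined in 26 of the 57 clusters (45.6%), beside 24.6% in the list. Names and joined pieces were not counted in the other dense loci, so these shares are not shown to be particular to the gene.

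Compared with the other dense loci, the Igf2bp1 run was long and had a leading cluster far above the rest, while its density was close to that of the others and its log2 ratios were not higher. Joining tagged-list clusters of a strand across gaps of up to 1000 nt gave 4724 loci, and 226 of these had 10 or more clusters. The run had the most clusters of these, the value by which it was chosen, and its length was the fourth highest (median of the 226 loci 1613 nt). Its 9.01 clusters per 1000 nt were close to the median of 9.44 (quartiles 6.75 and 12.2), and its covered share of 35.8% was close to the median of 32.1%. Its median log2 ratio of 2.78 was lower than the median of the loci, 3, and lower than the first quartile, 2.81. A log2 ratio of at least 3 was reached by 46.4% of its clusters, beside a median of 52.4% over the loci. The untagged library had 0 reads at 44.6% of its clusters, beside a median of 70% over the loci. The run also had more reads per cluster, a median of 13 beside 9.5 over the loci. The log2 ratios and the share with 0 reads depend on reads and were not matched for them here. No difference in enrichment or background is therefore read from them.

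The leading cluster held 20.5 times the median reads of its run. Over the 226 loci this ratio had a median of 3.19 (quartiles 2.32 and 4.7), and 1 other locus had a higher one, 21.6. Without the leading cluster the ratio in the Igf2bp1 run was 4.08. The other loci kept their leading clusters, so this value cannot be set against theirs. In any locus such a ratio rests on 1 cluster. More clusters give more occasions for a high one, and the run was chosen for having the most, 56 beside a median of 13. The ratio was not matched for number of clusters. Among the 9 other loci with the most clusters, the ratio was 18.1 in the locus on chromosome 5, minus strand, from 136384374, and 13.1 in the one on chromosome 1, plus strand, from 133827830. It was 5.47 in the locus on chromosome 19, minus strand, from 5796050, which was second in number of clusters (49) and close to the run in length (6344 nt). No gene of another locus could be named, because the lists carry positions without gene names.

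**Figure D4:**
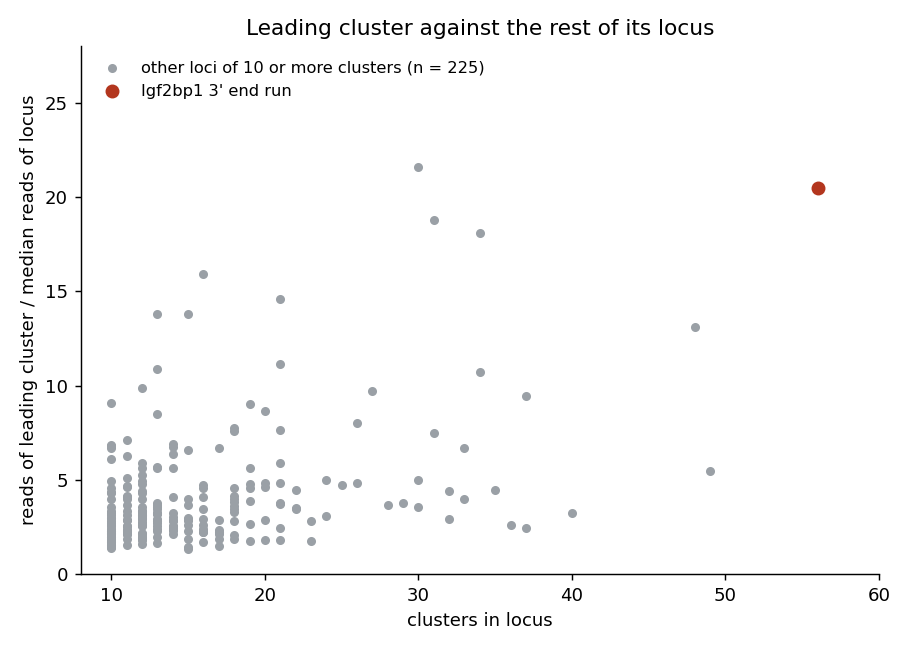
Reads of the leading cluster divided by the median reads of its locus, against the number of clusters in the locus, for the 226 loci of at least 10 clusters. The Igf2bp1 run (red) is the rightmost point, with 56 clusters and a ratio of 20.5, and 1 of the other 225 loci (grey) lies higher.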

How the data were processed

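For each library the authors deposited 1 list of iCLIP read clusters, limited to those enriched relative to the other library. The build was mm9 per the submitters' processing notes, and the sources used here do not name the aligner, the cluster caller or how PCR duplicates were handled. The deposited values are a read count at the highest position and 3 joined values without a header, inferred to be the cluster's read count, a log2 ratio of its reads to those of the other library, 1 added to both, and a one-sided binomial p-value. The other library's reads were recovered as the whole number that returned the deposited log2 ratio (tolerance 0.006) and p-value (tolerance 0.0001, and for smaller p a relative tolerance of 0.001). This gave a number for 100% of clusters, and 1 number only for each cluster of the gene. At tagged-list clusters these were rounded multiples of a factor between 1.5 and 1.502, taken as relative depth. Total depth is unknown. On 9157 clusters simulated for the tagged list, with the formula that the recovery inverts, 100% were recovered.

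Read ratios are tagged over unscaled untagged reads, divided by the factor, with exact binomial (Clopper-Pearson) intervals. Shares have Wilson intervals and medians have intervals from order statistics, all at 95%. They cover counting error only, since reads may not be independent molecules, and neighbouring clusters may share reads, so counts were not summed. Members and lists were chosen with earlier results of these data known. Clusters were named by reads (the 6 highest), listed p (the 5 lowest), untagged reads (the 5 highest, ties at 2 not all listed) and place (first, last, outside the run), and others after their values were seen. A planned list of Igf2bp family genes and let-7 targets was not counted, since no annotation of mm9 was used here. Python 3.11.15 with SciPy 1.17.1 was used.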

Additional observations from a re-analysis of the deposited data

How the results depend on the processing

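The 42 alternatives left 25 values within their limits, which were 1.5 times for counts and the 95% interval for shares and medians, and moved 17. The junction alternative could not move anything, since no cluster of the gene has such a name, so it is no sign of stability. No paired analysis was possible because there was a single library per group. Stricter limits select clusters of higher reads or ratios by construction. With a listed p of at most 0.01, the median reads were 18, the median log2 ratio 3.32 and the share with a log2 ratio of at least 3 65%. With a listed p of at most 0.001, 26 clusters in 11 stretches remained, with medians of 23.5 reads and a log2 ratio of 3.56, and the share was 73.1%. With at least 10 reads, 37 clusters remained, with a median of 19 reads and 24.3% at 0 untagged reads. Without the added 1, and with 0 untagged reads taken as 3 unscaled reads, 33.3% of the clusters reached a log2 ratio of 3, beside 11.4% of the whole list. Under this setting a cluster with 0 untagged reads reaches that ratio only if it has many tagged reads. Such clusters were 45.6% of the gene and 69.9% of the list, so no difference in enrichment is read from these shares. Merging at 10 nt gave 41 stretches and merging only touching clusters gave 57, where 50 nt gave 18, and after merging at 50 nt the median distance to the nearest stretch was 93 nt. Merging loci at 500 nt split the run at its 875 nt gap and put it at rank 2 by number of clusters, and counting stretches in place of clusters put it at rank 5, with 17. At most 5 untagged reads per cluster limit how precisely any single ratio is known.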
